A study of Mus musculus with 12 samples.

Results

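Adhesion G protein-coupled receptors are described here in neural stem cell (NSC) cultures from the mouse forebrain. Members were taken by name, as every gene of the deposited tables whose symbol was Adgr followed by a subfamily letter and a number, or Celsr1 to Celsr3. This gave 30 genes of 45792 listed. NSCs of neonatal pups (1 pup per culture, C57BL/6 background) were grown in serum-free medium with EGF and FGF, and 12 RNA libraries depleted of rRNA were compared in 3 groups of 4. WT cultures and Ncf1-/- cultures, which lack the cytosolic Nox2 subunit Ncf1 (the organizer of the NADPH oxidase), were untreated by their labels, and the methods give vehicle to the Ncf1-/- cultures. The third group was Ncf1-/- cultures given recombinant Igfbp2, an insulin-like growth factor-binding protein, at 100 ng/ml by the labels (the methods state a lower dose). To Ncf1-/- cultures Igfbp2 or vehicle was added 48 h after plating and RNA was collected 48 h later. The Ncf1-/- line came from a commercial source and was backcrossed, so that genotype and line cannot be told apart. No WT culture was given Igfbp2.

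Most adhesion GPCRs carry a long extracellular part with adhesion domains, a GAIN domain and the usual transmembrane bundle. In most of them the GAIN domain cuts the chain at the GPCR proteolysis site (GPS), and the short stretch behind the cut, the tethered agonist, can activate the receptor when the front part is pulled off. In the brain they are known for roles in synapse formation (latrophilins and BAI receptors), in progenitor and oligodendrocyte precursor proliferation (Adgrg1, also Gpr56), in myelination by Schwann cells (Adgrg6, also Gpr126), in vessel growth (Adgra2) and in planar cell polarity (the Celsr cadherins).

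The stretch that encodes the GPS was read from the GENCODE M21 transcripts (GRCm38, the build named by the labels) to show the element the family shares. The translated reading frames were searched for cysteine, any residue, cysteine, any residue, histidine, any residue, then serine or threonine. Of 30 members, 20 held this motif, against 54 of 21630 protein-coding genes (0.25%) with a complete reading frame, members included. The 10 others (Adgra1, Adgra2, Adgra3, Adgrb1, Adgrb3, Adgre1, Adgrf2, Adgrf4, Celsr1 and Celsr3) did not hold the whole motif in the longest reading frame. The search alone does not settle whether they are cleaved. The 45 coding bases from the first cysteine on are shown for members whose mRNA was tested, 5′ to 3′ on the gene's own strand. The 9 bases in capitals encode histidine, any residue, and the serine or threonine in front of which the chain is cut.
Adgrd1 (chr5:129171873-129171917, + strand): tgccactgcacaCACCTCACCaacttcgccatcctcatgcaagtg
Adgre5 (chr8:83725877-83725921, − strand): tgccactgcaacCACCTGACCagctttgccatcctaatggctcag
Adgrl1 (chr8:83933994-83934038, + strand): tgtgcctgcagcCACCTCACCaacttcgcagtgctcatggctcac
Adgrl2 (chr3:148837576-148837620, − strand): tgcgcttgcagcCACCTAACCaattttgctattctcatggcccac
Adgrl3 (chr5:81694571-81694615, + strand): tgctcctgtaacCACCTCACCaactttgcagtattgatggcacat
Adgrg1 (chr8:95007630-95008376, + strand, across an intron): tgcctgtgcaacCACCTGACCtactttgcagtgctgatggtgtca
Adgrg6 (chr10:14428212-14431644, − strand, across an intron): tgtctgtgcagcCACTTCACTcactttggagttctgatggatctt
Adgrb2 (chr4:130011895-130011939, + strand): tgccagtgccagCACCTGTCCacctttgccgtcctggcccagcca
Adgrv1 (chr13:81382278-81382322, − strand): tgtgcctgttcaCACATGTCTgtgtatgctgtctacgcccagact
Celsr2 (chr3:108396731-108396775, − strand): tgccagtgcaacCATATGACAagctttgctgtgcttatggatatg
The middle codon of the capitals starts with CT in all of these but Adgrg6, Adgrv1 and Celsr2.

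The libraries held between 18201622 and 34086554 expected counts, and 15706 genes passed a filter on low counts. Ncf1 itself had 7 or fewer counts in each WT library and 4 or fewer in each Ncf1-/- library, so that it did not check the genotype. Some libraries stood apart. Y-linked genes summed to between 107 and 118 CPM (counts scaled to the library size with TMM factors) in WT replicates 1 to 3 and to between 105 and 116 CPM in Ncf1-/- cultures, but to 6.46 CPM in WT replicate 4 and to between 7.79 and 9.18 CPM with Igfbp2. Treatment and Y-linked expression therefore cannot be told apart in the comparison of the treatments, although the methods pair these cultures by animal. Within groups, Y-linked expression stood apart in WT replicate 4 alone. A fit with it as a covariate therefore rests on that library. WT replicate 4 is also listed as treated with apocynin, an oxidase inhibitor, in 1 of 2 sample sheets of the study's software, against its label. WT replicate 3 had the most counts, 1769 CPM of summed oligodendrocyte markers against 5584 to 9969 CPM in the other WT libraries, and 8010 CPM of neural stem cell markers against 2477 to 3767 CPM. Each leading count below is given without WT replicates 3 or 4.

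Of the 30 members, 17 passed the filter and 13 did not. The 13 (Adgre1, Adgre4, Adgrf1 to Adgrf5, Adgrg2 to Adgrg5, Adgrg7 and Adgrl4) had at most 12 counts in any library. Adgrg4 and Adgrg5 had at most 1 count, and Adgrf2 had the highest of these values, 12 counts in an Ncf1-/- library. Adgre1, the F4/80 antigen of macrophages, had at most 3 counts, and Adgrl4, an endothelial receptor, had 0 counts in every WT library and at most 4 in any other. The lists for the cell types that these mark were also low. Microglia markers summed to between 0.835 and 2.13 CPM over all 12 libraries, with 2 of 8 genes at 0 counts throughout, and endothelial markers to between 4.57 and 16.8 CPM. Fitted without the filter, Adgrf4 was called higher in Ncf1-/- than in WT (log2 fold change 2.35, adjusted p = 0.0133) and Adgrl4 higher with Igfbp2 than in WT (3.88, 0.0483), from at most 7 and 4 counts a library. Other differences among the 13 were not detectable at this depth.

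Per length of transcript (TPM, the deposited unit that allows genes to be compared), Adgrg1 ranked 1 in all 3 groups, with 96.5 ± 18.8 TPM in WT, 82.3 ± 7.67 in Ncf1-/- and 79.8 ± 11.9 with Igfbp2 (SD, n = 4). It made up 29.8% ± 1.22, 31.5% ± 1.65 and 30.9% ± 2.56 of the family's summed TPM, and the ranges of these shares overlapped between all groups. Both of its neighbours on chromosome 8, Adgrg5 (31.5 kb before it) and Adgrg3 (3.47 kb behind it), were among the members not tested. In WT, ranks 2 to 5 were taken by Adgrl3 (35.8 ± 4.29 TPM), Adgrl1 (35.8 ± 4.47), Adgrb2 (35.6 ± 8.68) and Adgrb1 (31.4 ± 4.38), which do not differ beyond their SD. In Ncf1-/- cultures ranks 2 to 4 were Adgrb2 (32.9 ± 4.35 TPM), Adgrl2 (27.4 ± 8.51) and Adgrl3 (18.8 ± 3.35). Adgra2 had the lowest level of the tested members in both Ncf1-/- groups, at 0.740 ± 0.0622 TPM and, with Igfbp2, 0.603 ± 0.194.

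**Figure D1:**
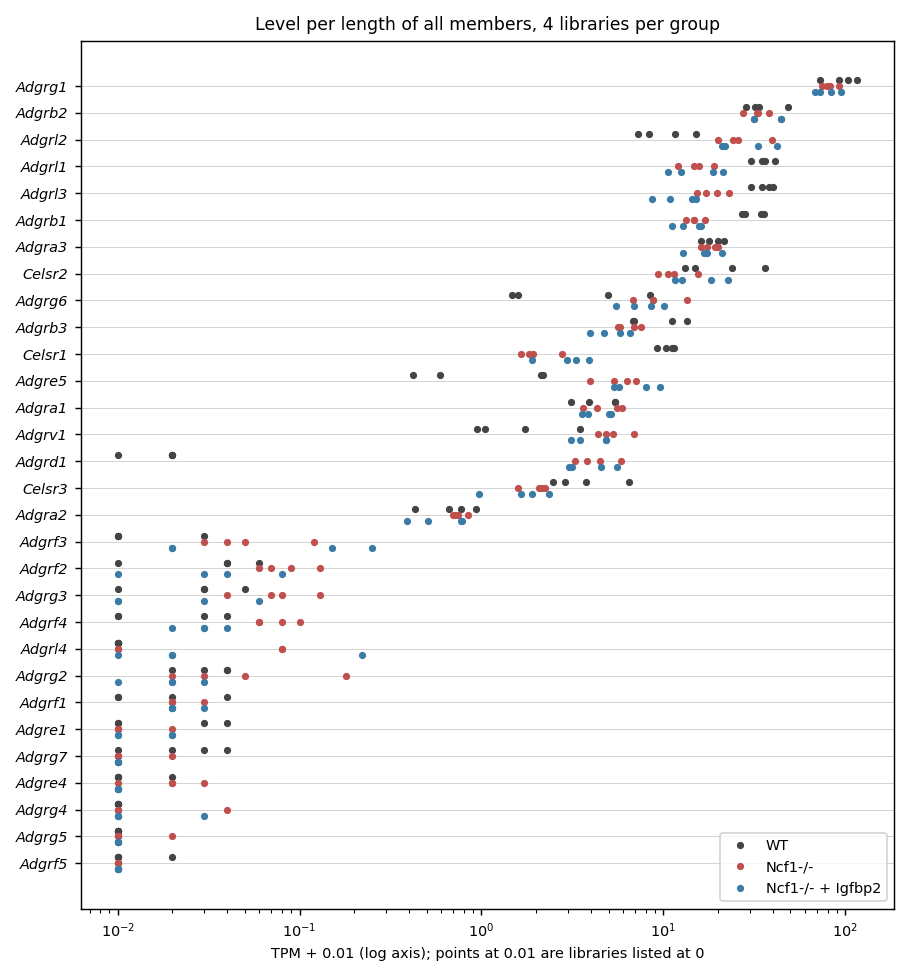
Level per length of all 30 members, as TPM + 0.01 on a log axis, with 1 point per library and 3 colours for the 3 groups. The 17 tested members lie to the right, led by Adgrg1, the 13 others stay near the left edge, and Adgrd1 is the tested member whose WT points lie at that edge.

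Between genotypes the make-up of the family changed. In Ncf1-/- cultures 13 of the 17 tested members were called at an adjusted p under 0.05 (edgeR quasi-likelihood test, Benjamini-Hochberg over all genes tested), against 57.2% of all genes. Of these, 5 were higher (Adgrd1, Adgre5, Adgrl2, Adgrg6 and Adgrv1, against 28.9% of all genes) and 8 were lower (Adgrb1, Adgrb3, Adgrl1, Adgrl3, Celsr1, Celsr2, Celsr3 and Adgrg1, against 28.2%). The 2 groups did not overlap for 11 members, against 51.2% of all genes. Adgrd1, counted among the members called, higher and without overlap, passed the filter only through the Ncf1-/- groups. The median log2 fold change was −0.18 over the 17 members and 0.02 over all genes tested. With library totals in place of TMM the medians were 0.00 and 0.19, 6024 genes were called higher and 3159 lower instead of 4545 and 4433, and 5 members were called higher and 7 lower. Without WT replicate 3, 14 members were called, and without WT replicate 4, 11. In bulk RNA fewer cells of a type and less RNA per cell cannot be told apart. Oligodendrocyte markers were among what moved with genotype: all 9 tested of 10 fell, and the list summed to between 1769 and 9969 CPM in WT against 213 to 271 CPM in Ncf1-/-. Astrocyte markers fell in 6 of 7 and summed to 6903 to 12197 CPM against 2943 to 3429 CPM, and oligodendrocyte precursor markers, of which 4 of 6 fell and 2 rose, to 2636 to 4072 CPM against 1985 to 2149 CPM. Of neuron markers 5 of 9 fell, with sums of 604 to 779 CPM against 489 to 555 CPM. Of neural stem cell markers 2 of 8 rose and 5 fell, and their sum was 7676 to 8263 CPM in Ncf1-/- cultures. Of the less abundant lists, 3 of 5 tested mesenchymal and mural markers, 1 of 3 ependymal and 1 of 2 microglia markers rose, and 1 of 3 endothelial markers fell. Their part in the results below was not tested.

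**Figure D2:**
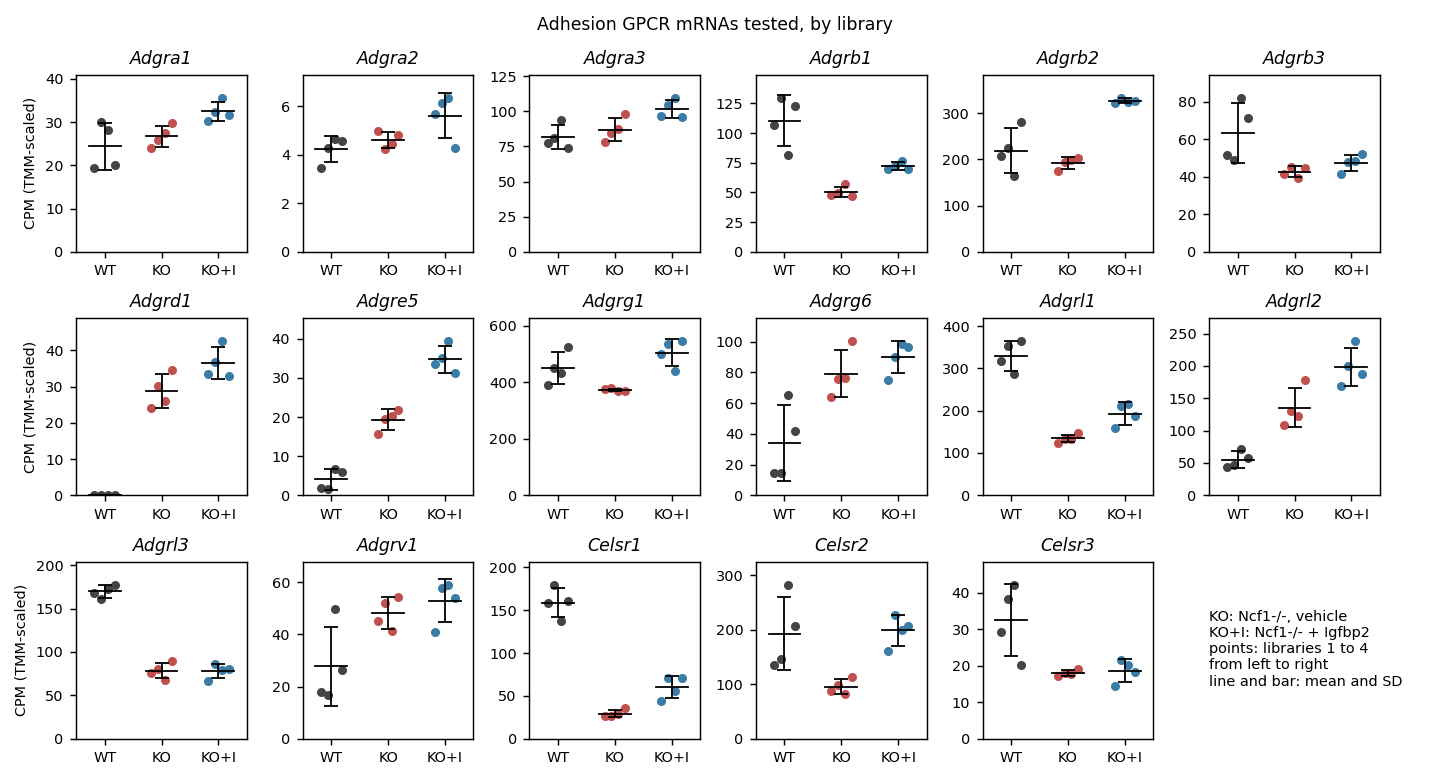
CPM of each of the 17 tested members in the 12 libraries, with the axis from 0, points for libraries 1 to 4 of each group from left to right, and a line and bar for the mean and SD. Adgrd1 lies at or near 0 in WT, Celsr1 and Adgrl3 separate WT from both Ncf1-/- groups, and Adgrb2 is highest with Igfbp2.

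Adgrd1 (Gpr133; chr5:129096750-129204599) changed the most. This receptor signals through Gs and cyclic AMP. It had 1, 0, 3 and 1 counts in WT replicates 1 to 4, 551, 624, 590 and 928 counts in Ncf1-/- replicates, and 605, 614, 890 and 672 counts with Igfbp2. Reads were all but absent from each WT library and present in each of the 8 others. Adgrd1 passed the filter on low counts through these 8 alone, so that its p-values against WT are not independent of the filter. From 5 counts in WT and 2693 in Ncf1-/-, the ratio of pooled CPM was 540.1 (95% counting interval 231 to 1665), with adjusted p = 4.51e-10 (edgeR). With Igfbp2 it was 683 (292.5 to 2106) over WT, with adjusted p = 5.03e-10, and the log2 fold change between the treatments, 0.35 ± 0.13 (SE), was not called (adjusted p = 0.0744), although it was without Ncf1-/- replicate 4 (0.46, 0.0250). The intervals cover counting error only. Adgrd1 lies 5.02 Mb from Ncf1 (134220053 to 134229625 on chromosome 5). Of 255 genes tested within 10 Mb of Ncf1 (Ncf1 left out), 146 (57.3%) were called between genotypes, against 57.2% of all genes. Of the 255, 4 (1.57%) had a log2 fold change above 3 in size, against 2.12% of all genes tested. Adgrd1 itself is counted in the 255, the 146 and the 4.

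Adgre5 (Cd97; chr8:83723251-83741326), a receptor of leukocytes and of many dividing cells that binds Cd55, was also low in WT. It had 1.91, 1.67, 6.68 and 5.90 CPM in WT, 15.6, 19.5, 20.4 and 21.8 CPM in Ncf1-/-, and 33.6, 35.0, 39.4 and 31.2 CPM with Igfbp2. No groups overlapped in CPM, but in TPM Igfbp2 (5.36 to 9.57) and vehicle (3.96 to 7.04) did. The WT libraries with the higher values were replicates 3 and 4, without which the log2 fold change between genotypes was 3.37 (adjusted p = 1.91e-09). With them the log2 fold change was 2.22 ± 0.33 (SE, adjusted p = 8.88e-05, edgeR) between genotypes and 0.85 ± 0.30 between the treatments, which missed the threshold (adjusted p = 0.0580). It passed in some alternatives, with adjusted p = 0.0377 by DESeq2 and 0.000146 when only the 2 groups compared were fitted. Of its 3757 exon bases, 895 (23.8%) are shared with Ddx39, an RNA helicase gene on the other strand that also rose in Ncf1-/- (log2 fold change 0.98, adjusted p = 2.92e-05). Whether counting used the strand is not given in the sources used here, so reads of this stretch cannot be told apart. Adgra2 shares 1.26% of its exon bases with Brf2 on the other strand. Another 7 tested members lie across from a gene on the other strand, and shared exon bases were not counted for these.

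The latrophilins, which bind teneurins, FLRT proteins and neurexins across synapses, did not move together. Adgrl1 (chr8:83900105-83941954) had 316, 353, 287 and 364 CPM in WT, 124, 133, 133 and 147 CPM in Ncf1-/-, and 158, 211, 216 and 187 CPM with Igfbp2. It fell in Ncf1-/- cultures, with a log2 fold change of −1.30 ± 0.11 (adjusted p = 1.07e-06). Adgrl1 lies 159 kb from Adgre5, which rose. Adgrl3 (chr5:81020138-81825133) had 168, 161, 173 and 177 CPM in WT, 75.4, 80.6, 68.2 and 89.7 CPM in Ncf1-/-, and 66.6, 86.0, 79.0 and 80.5 CPM with Igfbp2. Its log2 fold change was −1.11 ± 0.10 (adjusted p = 1.23e-06), and every WT library was above all 8 others. Adgrl2 (chr3:148815583-148990555) went the other way, with 44.3, 46.4, 72.1 and 58.1 CPM in WT, 109, 130.3, 123 and 179 CPM in Ncf1-/-, and 168, 199.5, 238 and 187 CPM with Igfbp2. It rose by 1.29 ± 0.18 (adjusted p = 5.06e-05), again without overlap, but was not called by Tukey's test on TPM (adjusted p = 0.141). As a share of the family's TPM, Adgrl2 was 3.22% ± 0.645 in WT and 10.3% ± 1.60 in Ncf1-/-, whereas Adgrl1 was 11.2% ± 1.11 and 5.82% ± 0.304.

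All 3 Celsr genes fell in Ncf1-/- cultures. These are 7-pass cadherins of the core planar polarity pathway, with roles in neural tube closure, ependymal cilia and axon guidance. Celsr1 (chr15:85898929-86033777) fell the most of the tested members: it had 158, 179.7, 137 and 160.5 CPM in WT, 26.3, 27.0, 28.8 and 35.6 CPM in Ncf1-/-, and 44.4, 70.8, 55.8 and 70.5 CPM with Igfbp2. Its log2 fold change was −2.43 ± 0.16 (adjusted p = 1.01e-07), and the 3 groups did not overlap in CPM. In TPM Celsr1 overlapped between Igfbp2 (1.89 to 3.91) and vehicle (1.63 to 2.77). Celsr2 (chr3:108390851-108415552) had 136, 146, 283 and 207 CPM in WT, 87.6, 97.9, 82.9 and 114 CPM in Ncf1-/-, and 161, 227, 200.3 and 208 CPM with Igfbp2. Its log2 fold change was −1.02 ± 0.21 (adjusted p = 9.18e-04), with the highest WT values in replicates 3 and 4, and was −0.61 (adjusted p = 0.00186) without these 2 libraries. Celsr3 (chr9:108826320-108852969) had 29.1, 38.3, 42.1 and 20.3 CPM in WT, 17.1, 17.997, 17.7 and 19.0 CPM in Ncf1-/-, and 14.3, 21.6, 20.2 and 18.3 CPM with Igfbp2. The log2 fold change of Celsr3 was −0.86 ± 0.19 (adjusted p = 0.00172). By Tukey's test on TPM Celsr1 was called (adjusted p = 1.66e-04), but Celsr2 (0.4) and Celsr3 (0.29) were not. The 3 genes together made up 11.1% ± 2.31 of the family's TPM in WT, 5.97% ± 0.215 in Ncf1-/- and 7.95% ± 0.972 with Igfbp2.

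Of the BAI receptors, which take part in synapse formation and, for Adgrb1, in the uptake of dying cells, 2 of 3 fell. Adgrb1 (Bai1; chr15:74516195-74589465) had 107, 129.8, 81.8 and 123 CPM in WT, 48.1, 49.1, 56.7 and 46.7 CPM in Ncf1-/-, and 69.7, 72.5, 76.7 and 70.1 CPM with Igfbp2. Its log2 fold change was −1.14 ± 0.12 (adjusted p = 6.53e-06), and in CPM the group with Igfbp2 lay between the other 2 without overlap. In TPM Adgrb1 overlapped between Igfbp2 (11.09 to 16.05) and vehicle (13.37 to 16.93). Adgrb3 (Bai3; chr1:25067476-25829707) had 51.5, 48.8, 82.1 and 71.3 CPM in WT, 41.3, 45.3, 39.6 and 44.8 CPM in Ncf1-/-, and 41.6, 47.8, 48.4 and 51.8 CPM with Igfbp2. Adgrb3 fell as well, at −0.57 ± 0.15 (adjusted p = 0.00463), and its highest WT values were those of replicates 3 and 4. Without these 2 libraries the value was −0.28 (adjusted p = 0.0262), and the call was lost on log2(TPM + 1) (−0.46, 0.0894), on log2(TPM + 0.1) (−0.51, 0.0922) and by Tukey's test (0.393). Adgrb2 (Bai2; chr4:129984870-130022633) had 207, 224, 164 and 282 CPM in WT and 175, 193, 199 and 204 CPM in Ncf1-/-, and was not called, at −0.18 ± 0.13 (adjusted p = 0.240). WT replicate 3 decided this: without it the value was −0.34 (adjusted p = 0.00878).

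Adgrg1 (Gpr56; chr8:94974751-95014217), which binds collagen III and transglutaminase 2, had 389, 450.3, 433 and 525 CPM in WT, 376, 378, 370.0 and 370.3 CPM in Ncf1-/-, and 498, 533, 439 and 545 CPM with Igfbp2. Its fall between genotypes was small, at −0.27 ± 0.10 (adjusted p = 0.0375), and was no longer called in 13 of 23 alternatives, among them the fits without WT replicate 2 (−0.27, adjusted p = 0.0667) or 4 (−0.21, 0.0693) and without Ncf1-/- replicate 1 (−0.27, 0.0681) or 3 (−0.29, 0.0536). Adgrg6 (chr10:14402583-14545659), which binds collagen IV, laminin and the prion protein, had 14.7, 14.5, 65.6 and 41.8 CPM in WT, 64.1, 75.8, 76.4 and 100.3 CPM in Ncf1-/-, and 75.3, 90.0, 98.6 and 96.5 CPM with Igfbp2. It rose by 1.21 ± 0.39 (adjusted p = 0.0172), and WT replicate 3 lay within the Ncf1-/- range. Without WT replicate 3 the value was 1.71 (adjusted p = 3.32e-04) and without WT replicates 3 and 4 it was 2.39 (4.47e-08), whereas without Ncf1-/- replicate 4 Adgrg6 was not called (1.04, 0.0542). Tukey's test on TPM did not call Adgrg6 either (adjusted p = 0.2).

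Adgrv1 (chr13:81095068-81633154), the very large receptor known from the stereocilia of hair cells, had 17.9, 16.8, 49.7 and 26.3 CPM in WT, 45.2, 52.2, 41.1 and 54.4 CPM in Ncf1-/-, and 40.8, 57.9, 59.0 and 54.0 CPM with Igfbp2. In reads it rose by 0.79 ± 0.28 (adjusted p = 0.0270), with WT replicate 3 inside the Ncf1-/- range, and the call was lost without any 1 of WT replicates 1 (0.63, adjusted p = 0.0719), 2 (0.62, 0.0709) or 4 (0.75, 0.0559) or Ncf1-/- replicates 2 (0.73, 0.0597) or 4 (0.69, 0.0755). Without WT replicate 3 it was 1.21 (adjusted p = 4.54e-05), and without WT replicates 3 and 4 it was 1.42 (4.28e-06). The groups also stood apart in transcript length. RSEM gives each gene a length weighted by the estimated share of its transcripts, and for Adgrv1 this was 12239, 11464, 11784 and 11733 bases in WT, 7129, 7450, 6357 and 6839 bases in Ncf1-/-, and 6235, 7329, 8020 and 7170 bases with Igfbp2. Every WT library, replicate 3 included, was above all 8 others. The mean was 11805 ± 321 bases in WT and 6944 ± 464 bases in Ncf1-/- (SD, n = 4), a difference of −41.2%. An exact two-sided permutation test gave p = 0.0286, the smallest that 4 against 4 allows, and an adjusted p = 0.2 over the 14 members with more than 3 counts in every library and any variation in length. No member could reach an adjusted p under 0.05 singly in this design, and none did in any comparison. At an unadjusted p under 0.05 there were 2 members between genotypes (Adgrv1 and Celsr2, for which the mean length differed by −6.38%), 1 between the treatments (Adgrl3, 10.7% longer with Igfbp2) and 1 between Igfbp2 and WT (Adgrv1, with a difference of −39.1%). Per length, Adgrv1 had 0.940, 1.03, 3.49 and 1.72 TPM in WT and 4.39, 5.25, 4.81 and 6.91 TPM in Ncf1-/-, with no overlap, and limma on log2(TPM + 0.1) gave a log2 fold change of 1.69 (adjusted p = 6.98e-04) on that scale. Which transcripts made up the difference was not analysed here.

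**Figure D3:**
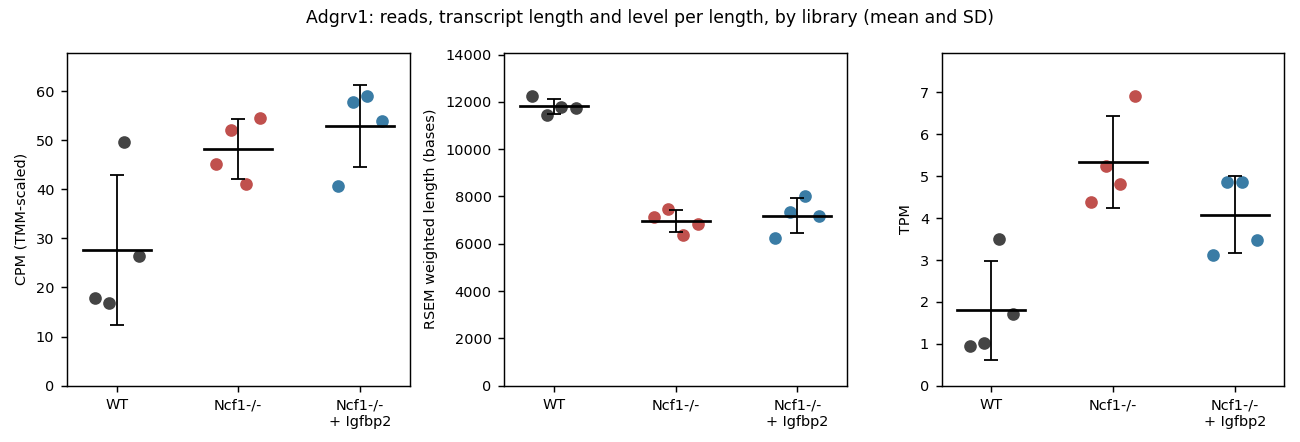
Adgrv1 in the 12 libraries as CPM, as RSEM weighted length in bases and as TPM, each axis from 0, with points for libraries 1 to 4 from left to right and a line and bar for the mean and SD. WT replicate 3 joins the Ncf1-/- libraries in CPM but stays with the other WT libraries, at 11784 bases, in length.

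Adgra1, Adgra2 and Adgra3, of which Adgra2 is the co-receptor of Reck for Wnt7 signalling in brain vessels, were not called between genotypes (log2 fold changes 0.13 ± 0.13, 0.13 ± 0.15 and 0.09 ± 0.09, with adjusted p = 0.426, 0.494 and 0.423 by edgeR).

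**Figure D4:**
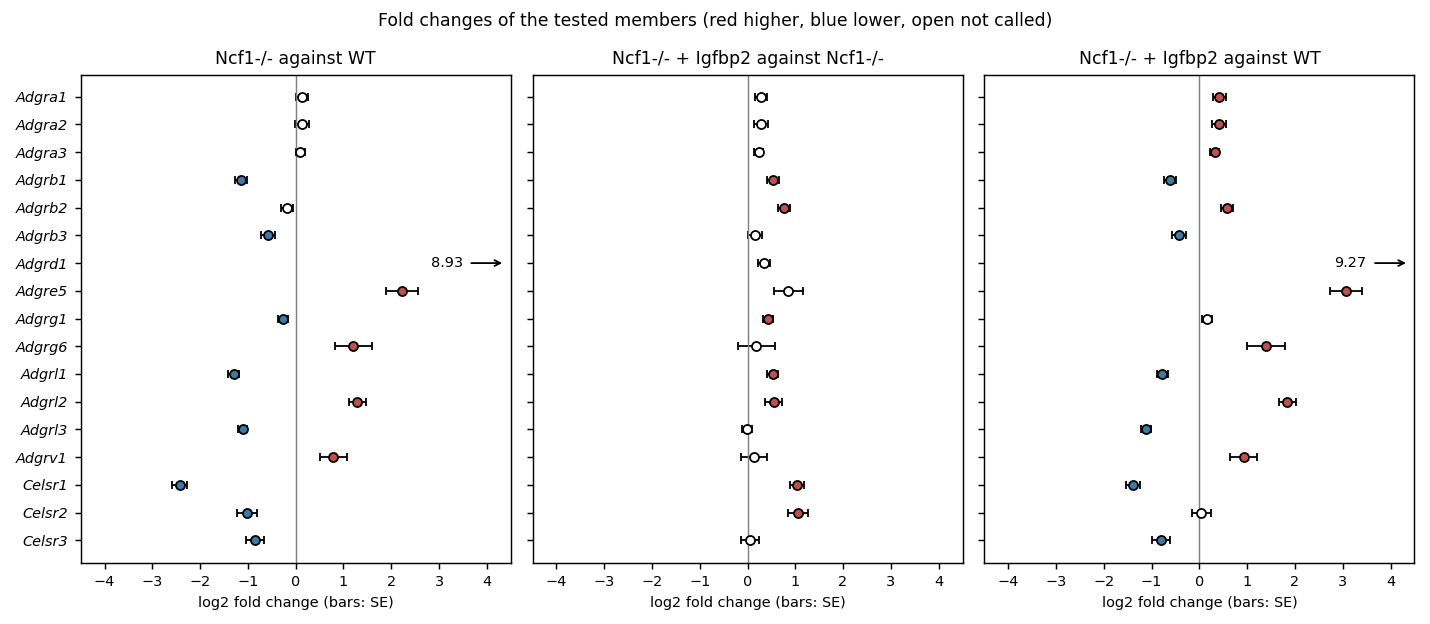
Log2 fold changes of the 17 tested members in the 3 comparisons, with bars for the SE, red for called higher, blue for called lower and open points for not called. Arrows give the fitted values of Adgrd1, which lie off the axis. In the middle panel 16 of 17 points are above 0, and in the left panel 8 are.

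With Igfbp2, 7 members were called against vehicle-treated Ncf1-/- cultures, against 25.0% of all genes, and all 7 were higher (14.2% of all genes were called higher and 10.7% lower). These were Celsr1, Celsr2, Adgrb1, Adgrb2, Adgrl1, Adgrl2 and Adgrg1. Members called lower numbered 0, by edgeR as by DESeq2, and 0 of 17 were lower at an unadjusted p under 0.05 in either tool, against 10 that were higher. Groups did not overlap for 8 members, against 34.1% of all genes. Without WT replicate 3, 8 members were called, and without WT replicate 4, 6. These directions rest on TMM scaling: 16 of 17 members were above 0 with TMM, 11 with library totals and 6 with TPM. The scaling moved all genes, whose median log2 fold change between the treatments was 0.04 with TMM, −0.23 with library totals and −0.30 on log2(TPM + 1). Over all genes 2238 were called higher and 1685 lower with TMM, 648 and 5258 with library totals, and 200 and 6154 on log2(TPM + 1). Relative to that median the members' median was 0.31 higher with TMM, 0.31 with library totals, 0.19 on log2(TPM + 1) and 0.33 in the TPM means. Members above the median of all genes numbered 16, 16, 15 and 16 of 17 in the same order. When the fit held Y-linked expression as a covariate, 0 members were called, 5 were higher and 0 lower at an unadjusted p under 0.05, and 5 of all genes were called. As treatment and Y-linked expression go together, this fit rests on WT replicate 4 and cannot decide the calls.

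**Figure D5:**
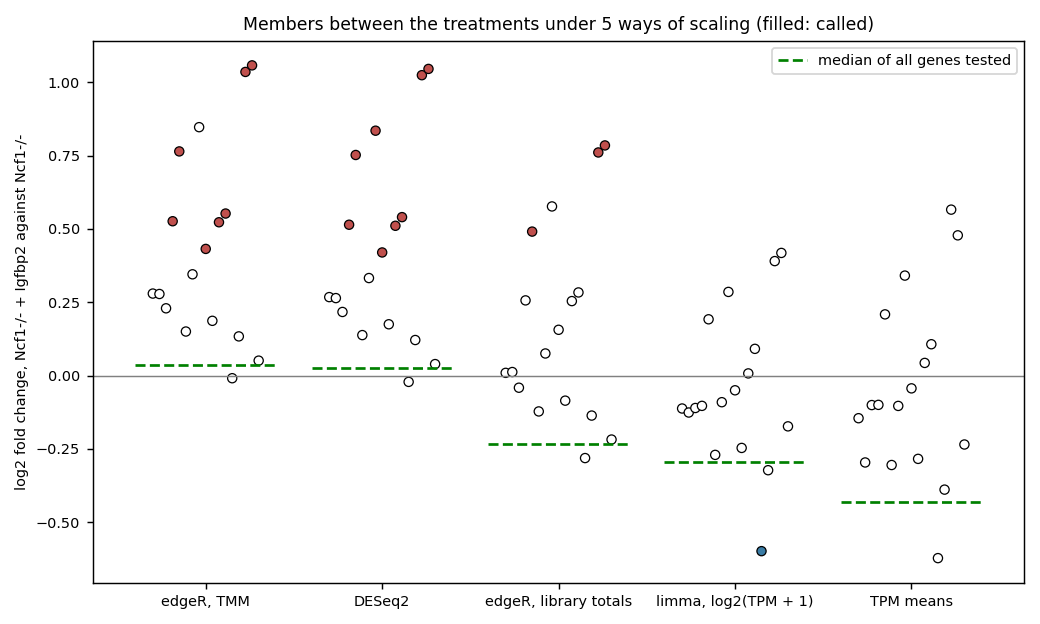
Log2 fold changes of the 17 tested members between Igfbp2 and vehicle in Ncf1-/- cultures under 5 ways of scaling, in alphabetical order from left to right within each, with filled points for members called and a dashed line for the median of all genes tested. The dashed line drops from 0.04 with TMM to −0.43 for TPM means, and 15 or 16 members stay above it.

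Celsr2 and Celsr1 rose the most with Igfbp2, by 1.06 ± 0.21 (adjusted p = 0.00402) and 1.04 ± 0.15 (adjusted p = 0.00105) on the log2 scale with TMM. They kept their call with library totals, at 0.78 (adjusted p = 0.0146) and 0.76 (0.00244), and were above 0 but not called on log2(TPM + 1), at 0.42 (0.236) and 0.39 (0.0814). Celsr3 was not called (0.05 ± 0.19, adjusted p = 0.868). Adgrb2 had 323, 334, 325 and 327 CPM with Igfbp2, above all 8 other libraries. It rose over vehicle by 0.76 ± 0.13 (adjusted p = 0.00218), held its call with library totals (0.49, 0.00977) and was at 0.19 (0.386) on log2(TPM + 1).

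Adgrb1 (0.53 ± 0.12, adjusted p = 0.0101), Adgrl1 (0.52 ± 0.11, 0.00621), Adgrl2 (0.55 ± 0.18, 0.0391) and Adgrg1 (0.43 ± 0.10, 0.00972) were called with TMM, and none of these 4 was with library totals (adjusted p = 0.115, 0.116, 0.277 and 0.223). Adgrb1 and Adgrg1 changed sign in TPM, to −0.10 and −0.05. The call of Adgrl2 was the least stable and was lost in 15 of 24 alternatives. These took in the block of culture pairs (adjusted p = 0.0572) and the fits without WT replicate 4 (0.52, 0.0511), Ncf1-/- replicates 1 (0.46, 0.112), 2 (0.50, 0.108) or 3 (0.47, 0.113), or Igfbp2 replicates 2 (0.55, 0.0767), 3 (0.45, 0.107) or 4 (0.58, 0.0629). Adgrb1 lost its call without Ncf1-/- replicate 2 (0.48, 0.0525). Adgrl3 was at −0.01 ± 0.10 with TMM (adjusted p = 0.957) and called lower on log2(TPM + 1), at −0.60 (0.0172). Of the cell type markers tested between the treatments, neuron markers fell in 2 of 9, neural stem cell markers rose in 1 of 8 and fell in 1 (Hes5, −1.48, adjusted p = 8.69e-04), and oligodendrocyte precursor markers rose in 1 of 6 (Cspg4, 0.95, 0.00135). Mesenchymal and mural markers rose in 3 of 5 and summed to 20.6 to 24.6 CPM against 8.97 to 11.2 CPM, ependymal markers rose in 1 of 3, with sums of 57.4 to 80.7 CPM against 31.8 to 38.8 CPM, and endothelial markers rose in 1 of 3, with sums of 11.8 to 16.8 CPM against 4.57 to 8.84 CPM. Oligodendrocyte, astrocyte and microglia markers had 0 called of 9, of 7 and of 2. Of all genes, 14.2% were called higher and 10.7% lower. The part of these markers in the results was not tested. Their part in these results was not tested.

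Against WT, Ncf1-/- cultures with Igfbp2 had 15 of 17 members called, against 62.4% of all genes, with 9 higher (31.6% of all genes) and 6 lower (30.8%). The groups did not overlap for 11 members, against 54.3% of all genes. Any 2 of the 3 comparisons share a group of libraries, so that their values are not independent. Scaling moved the split of all genes here too, from 4964 called higher and 4837 lower with TMM to 1969 and 6890 on log2(TPM + 1), where the median was −0.15 over the members and −0.25 over all genes. Without WT replicate 3, 14 members were called, and without WT replicate 4, 12. The 6 lower members were Adgrl3 (−1.12 ± 0.10, adjusted p = 1.11e-06), Celsr1 (−1.40 ± 0.15, 5.49e-06), Adgrl1 (−0.77 ± 0.11, 5.89e-05), Adgrb1 (−0.61 ± 0.12, 8.38e-04), Celsr3 (−0.81 ± 0.19, 0.00245) and Adgrb3 (−0.42 ± 0.15, 0.0232). With the Y-linked covariate Celsr3 was at −0.20 (adjusted p = 0.448) and Adgrb3 at −0.55 (0.0512), both not called. Within groups that covariate varied mainly through WT replicate 4, so this fit cannot separate it from that library. Adgrb3 was also lost without Igfbp2 replicate 1 (−0.36, 0.0701) and without WT replicates 3 and 4 (−0.17, 0.152). Celsr2 and Adgrg1 were not called, at 0.04 ± 0.20 (adjusted p = 0.865) and 0.17 ± 0.10 (0.171). Without WT replicates 3 and 4 together, Celsr2 was called higher (0.41, adjusted p = 0.0236). Cell type markers moved in this comparison too: all 9 tested oligodendrocyte markers were lower, with sums of 227 to 306 CPM against 1769 to 9969 CPM, as were 5 of 7 astrocyte (1 higher), 5 of 9 neuron (1 higher), 5 of 8 neural stem cell (2 higher) and 3 of 6 oligodendrocyte precursor markers (2 higher). All 3 tested ependymal, 3 of 5 mesenchymal and mural (1 lower), 1 of 3 endothelial (1 lower) and 1 of 2 microglia markers were higher. Their part in these results was not tested.

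Higher than WT with Igfbp2 were Adgrd1, given above, Adgre5 (3.07 ± 0.34, adjusted p = 6.76e-06), Adgrl2 (1.84 ± 0.18, 3.01e-06), Adgrg6 (1.39 ± 0.39, 0.00724), Adgrv1 (0.92 ± 0.28, 0.0113) and Adgrb2 (0.58 ± 0.13, 0.00170). Adgrb2 was not called on log2(TPM + 1) (0.10, 0.647), by Tukey's test (0.09, 1) or with the Y-linked covariate (0.25, 0.170), and was at 0.38 (0.00405) without WT replicate 3. Adgrg6 and Adgrv1 were not called with that covariate (1.19, 0.141 and 1.03, 0.0849), and without WT replicates 3 and 4 they were at 2.54 (2.35e-08) and 1.52 (2.19e-06). The values with the covariate rest on WT replicate 4, as above. The Adgra members completed the 9. Adgra1 had 19.5, 30.0, 28.2 and 20.1 CPM in WT, 24.0, 25.98, 27.4 and 29.7 CPM in Ncf1-/-, and 30.3, 32.3, 35.7 and 31.7 CPM with Igfbp2. Adgra2 had 3.46, 4.26, 4.65 and 4.57 CPM in WT, 4.97, 4.26, 4.46 and 4.81 CPM in Ncf1-/-, and 5.70, 6.13, 6.36 and 4.27 CPM with Igfbp2. Adgra3 had 77.4, 80.8, 93.7 and 74.2 CPM in WT, 77.9, 84.7, 87.2 and 97.9 CPM in Ncf1-/-, and 97.0, 105, 109.8 and 96.2 CPM with Igfbp2. All 3 were higher than WT with TMM by 0.41 ± 0.13, 0.40 ± 0.15 and 0.32 ± 0.09 (adjusted p = 0.0174, 0.0322 and 0.00931), and all 3 changed sign in TPM. Without WT replicate 4 none of the 3 was called (0.26, 0.37 and 0.21, with adjusted p = 0.108, 0.0632 and 0.0715), and Adgra2 kept its call in 6 of 22 alternatives that gave it a value.

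The genes that bind or work with these receptors moved in both directions. Of 28 ligands and partners, 25 were tested, and 6 rose and 12 fell in Ncf1-/- cultures, with a median of −0.35 against 0.02 over all genes. Of all genes tested, 28.9% were called higher and 28.2% lower in Ncf1-/- cultures. Among those called the largest changes were those of Col3a1, a ligand of Adgrg1 (4.28 ± 0.39, adjusted p = 1.42e-06, from a mean of 0.122 to 2.90 CPM), C1ql1, a ligand of the BAI family (−4.06 ± 0.23, 5.92e-08), Flrt1 (−2.67 ± 0.37, 4.86e-05) and Tenm2 (−2.45 ± 0.36, 6.75e-05), both ligands of latrophilins. Col3a1 had 1 to 10 counts in each WT library and passed the filter only through the Ncf1-/- groups. Its p-value against WT is therefore not independent of the filter. With Igfbp2, 7 rose over vehicle and 1 fell with TMM, against 3 and 3 with library totals and 2 and 3 on log2(TPM + 1). With TMM, 14.2% of all genes were called higher and 10.7% lower. Over all genes 648 rose and 5258 fell with library totals, and 200 and 6154 on log2(TPM + 1). Unc5b rose (2.67 ± 0.36, 8.54e-04) and Flrt3 fell (−0.83 ± 0.16, 0.00378), and both were also called with library totals (2.40 and −1.10) and on log2(TPM + 1) (1.68 and −0.91). Col4a1, a ligand of Adgrg6, rose by 1.30 ± 0.30 (adjusted p = 0.00873, and 0.0173 with library totals), and Tenm3 by 1.06 ± 0.19 (adjusted p = 0.00275, and 0.00883).

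Planar polarity partners of Celsr were all tested, and 3 of 13 rose and 6 fell in Ncf1-/-, with a median of −0.11 (0.07 with library totals). Of all genes, 28.9% were called higher and 28.2% lower. Prickle1 fell, at −4.25 ± 0.48 (adjusted p = 8.34e-06), from 62.0 ± 41.2 to 3.22 ± 0.649 CPM (SD, n = 4), whereas Prickle3 rose (1.63 ± 0.39, 0.00318) and Ankrd6 (−1.21 ± 0.12, 2.37e-06) and Fzd6 (0.99 ± 0.27, 0.00637) moved in opposite directions. Prickle3 had 1 to 10 counts in each WT library and passed the filter only through the Ncf1-/- groups, so its p-value is not independent of it. With Igfbp2, 3 of 13 rose with TMM and 0 fell, against 0 and 3 with library totals. With TMM 14.2% of all genes rose and 10.7% fell.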

How the data were processed

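RNA of 12 NSC cultures (3 groups of 4) was analysed from the gene tables. The authors aligned ribosome-depleted reads to GRCm38 with Bowtie2 and quantified them with RSEM (versions and strandedness are not given in the sources used here). The deposited expected counts, of which 15.9% were not whole, were rounded. The deposited TPM served levels between genes and alternatives. The authors' merged table holds a score, TPM times the number of transcripts (257083 values compared, 0 differing), and was used for symbols only. FPKM was not used.

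Counts were tested with edgeR 4.0.16 in R 4.3.3 (quasi-likelihood, TMM factors, filterByExpr, 3 group means, Benjamini-Hochberg over 15706 genes, called at an adjusted p under 0.05), after a check on simulated data. SE is the fold change divided by the root of F. CPM are TMM-scaled. Alternatives used DESeq2 1.42.0, limma 3.58.1, library totals, other filters, TPM, a Y-linked covariate, a replicate block and each library left out. Libraries held 18201622 to 34086554 counts. The methods give 1 pup per culture and pair vehicle and Igfbp2 cultures by animal, but deviations of same-numbered cultures correlated at −0.0673 to 0.0328 (4 pairs), against −0.248 to 0.257 (12 other pairs), and Y-linked levels differed within pairs. All members were named. Those called in any comparison were given in full, and at most 4 called genes of each other list, by size. A further gene list is not reported here. Members and lists were chosen with earlier results of these data known.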

Additional observations from a re-analysis of the deposited data

How the results depend on the processing

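Of 811 values of called members under other settings, 689 kept their direction and call, 107 kept only their direction and 15 changed direction. These settings took in a stricter threshold of 0.01 on the main fit, under which no fold change was recomputed and no direction could change. Between genotypes 8 members were called by ANOVA and Tukey's test on TPM instead of 13, and 4329 of all genes instead of 8978. Among the 8 was Adgrf4 (2.38, adjusted p = 0.019), which had not passed the filter and had at most 7 counts a library. Adgrb3, Adgrg1, Adgrg6, Adgrl2, Celsr2 and Celsr3 were lost. Between the treatments, instead of 7, 3 were called with library totals, 1 by limma on log2(TPM + 1) and 1 on log2(TPM + 0.1) (in both Adgrl3, lower and not among the 7, all of which were lost), 0 by ANOVA and Tukey's test on TPM (0 higher and 1 lower at an unadjusted p under 0.05) and 0 with the Y-linked covariate. In the same order these fits called 5906, 6354, 6519, 2149 and 5 of all genes, instead of 3923. Between Igfbp2 and WT 6 members were called by Tukey's test and 9 with the covariate, instead of 15. Over all genes these were 5592 and 6778, instead of 9801. Fits with the covariate rest on WT replicate 4. With 1 library left out, 11 to 14, 5 to 9 and 12 to 15 members were called in the 3 comparisons. Counts over all genes are not given for fits with libraries left out. Without WT replicates 3 and 4, an alternative chosen after seeing the data, 13, 8 and 14 were called.

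The changes of direction were all in TPM, given here for log2(TPM + 1), log2(TPM + 0.1) and TPM means. Between the treatments Adgrb1 was at −0.10, −0.11 and −0.10 and Adgrg1 at −0.0504, −0.051 and −0.0438. Between Igfbp2 and WT Adgra1 was at −0.0077, −0.0056 and −0.0261, Adgra2 at −0.074, −0.17 and −0.19, and Adgra3 at −0.15, −0.16 and −0.15. The cause was not tested.

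With the replicate block, the pairing that the methods state, 6 members were called between the treatments, and Adgrl2 was lost (adjusted p = 0.0572). Of all genes, 2757 were called with the block instead of 3923. The block changed no other member's call. Members at a few counts a library limit what this depth can show.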
